A study of Homo sapiens with 6 samples.

Results

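BRA (brachyury, the T-box factor encoded by T) was mapped by ChIP-seq around 5 genes of the retinoic acid pathway, ALDH1A2, DHRS3, CYP26A1, RARB and MEIS1. A peak was counted for a gene when its midpoint lay in the gene body or in the 50 kb on either side, in hg19 coordinates. This rule, which uses position and no measured value, selected 41 of the 54994 peaks in the 4 deposited lists. The cells were H9, an established human embryonic stem cell (hESC) line, kept for 36 h in 10 μM LY294002, a PI3 kinase inhibitor, and 20 ng/ml FGF2. Endoderm progenitors received in addition 100 ng/ml activin A (FLyA medium), and mesoderm progenitors received 10 ng/ml BMP4 (FLyB medium). Each medium was assayed in 1 library with the R&D Systems antibody (AF2085) and in 1 library with the Santa Cruz antibody (sc-20109). All libraries came from a single line, and the labels name no separate cultures. The series also holds 2 libraries of input DNA, not analysed here.

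The R&D Systems lists held 25864 peaks in FLyA and 23687 in FLyB, and the Santa Cruz lists 2436 and 3007. All peaks were 400 bp wide, without a height or a p-value, so the lists show where binding was called and not how strong it was. The read depth behind each peak is unknown. A place without a peak was not called, which does not show that BRA was absent from it. Each combination of medium and antibody has 1 library, so there are no p-values. Shares of peaks carry exact 95% intervals (Clopper-Pearson) for counting error alone, which are too narrow where peaks lie side by side. Transcript levels are not part of the lists, so the identity of the progenitors could not be checked here against marker genes.

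Retinoic acid is made from vitamin A in steps that oxidise retinol to retinaldehyde and retinaldehyde to retinoic acid. It acts through nuclear receptors bound to DNA and patterns the trunk, the hindbrain and the paraxial and lateral mesoderm of the embryo. Its level is held in bounds by enzymes that remove its precursor or degrade it, and several genes that encode these enzymes and its receptors are themselves induced by it. Of the genes studied here, ALDH1A2 encodes the main enzyme of retinoic acid synthesis in the early mesoderm. DHRS3 encodes a reductase that returns retinaldehyde to retinol. CYP26A1 encodes the cytochrome P450 that degrades retinoic acid in the primitive streak and tailbud. RARB encodes a retinoic acid receptor, and MEIS1 a homeodomain partner of HOX and PBX proteins that responds to retinoic acid.

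The start regions of ALDH1A2 and DHRS3 are shown because an FLyA peak lay within 1 kb of each start. Each line gives the 250 bases before the outermost start site in RefSeq (GRCh38.p14, minus strand), at chr15:58065712-58065961 and chr1:12618211-12618460.
ALDH1A2: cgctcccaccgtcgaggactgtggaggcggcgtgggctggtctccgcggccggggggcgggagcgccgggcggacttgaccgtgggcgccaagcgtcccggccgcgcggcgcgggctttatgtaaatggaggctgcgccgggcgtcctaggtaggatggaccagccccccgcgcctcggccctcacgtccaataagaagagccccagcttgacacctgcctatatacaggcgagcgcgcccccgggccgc
DHRS3: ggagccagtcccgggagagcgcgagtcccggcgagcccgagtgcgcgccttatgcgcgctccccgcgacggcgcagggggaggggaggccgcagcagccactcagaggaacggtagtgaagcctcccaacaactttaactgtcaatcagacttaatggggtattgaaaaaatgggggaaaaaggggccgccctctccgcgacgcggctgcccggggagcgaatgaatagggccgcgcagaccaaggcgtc
Neither stretch held the T-box half-site AGGTGTGA on either strand, nor its shorter forms GGTGTGA and GGTGTG, which are parts of it. Among 35116 RefSeq promoter stretches of this length, 0.786% held the first, 2.76% the second and 14.2% the third. Of the 12 start sites that RefSeq lists for the 5 genes, 3 had the shortest form in the 250 bases upstream, 1 each at ALDH1A2, DHRS3 and MEIS1. For ALDH1A2 and DHRS3 this was a start inside the gene and not the outermost one. Whether the stretches shown lie within a peak was not determined because the builds differ. They therefore do not describe the sequence under the peaks.

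RARB and CYP26A1 each carry the textbook response element of the retinoic acid receptors, a direct repeat of a short half-site with 5 bases between the copies. They are shown in 30 bases of RefSeq (GRCh38.p14), RARB on its plus strand at chr3:25428204-25428233 and CYP26A1 on the minus strand, opposite to its transcript, at chr10:93073796-93073825. The search was for the letters GTTCA of each half-site with 6 bases of any kind between them, namely the spacer and the first base of the second half-site. Capitals mark the stretch that matched, which leaves out the first base of the first half-site.
RARB: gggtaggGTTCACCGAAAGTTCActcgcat
CYP26A1: acaattaGTTCACCCAAAGTTCAtctttaa
Of the 16 marked bases, 15 were identical in both genes. The matched stretches ended 37 bases before the RARB start and 75 bases before the CYP26A1 start. On either strand, the searched letters occurred in 17 of the 35116 promoter stretches (0.0484%). The motif was chosen because it is known at these 2 genes, so its presence is a description and not a result. In both genes the BRA peak nearest to the start counted by the rule lay about 2 kb upstream of it, as described below by gene. The distance from peak to element was not computed because the builds differ.

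Across the 5 genes, the R&D Systems antibody gave 18 peaks in FLyA and 22 in FLyB. The Santa Cruz antibody gave 0 peaks in FLyA and 1 in FLyB. Merging peaks that overlapped by at least 1 bp left 36 sites, of which 14 were found in FLyA only, 18 in FLyB only and 4 in both media. Per length, this was 18.5 peaks per Mb in FLyA and 22.6 in FLyB over 974 kb of windows, against 8.80 and 8.06 peaks per Mb over the whole R&D Systems lists. The density was thus 2.10 times that of the whole list in FLyA and 2.80 times in FLyB. MEIS1 contributed 19 of these 40 peaks. Without it, a choice made after the counts were seen, the ratios were 1.70 and 1.69. The whole-list density covers gene-poor and unmappable stretches too, so a ratio above 1 is not particular to these genes.

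**Figure D1:**
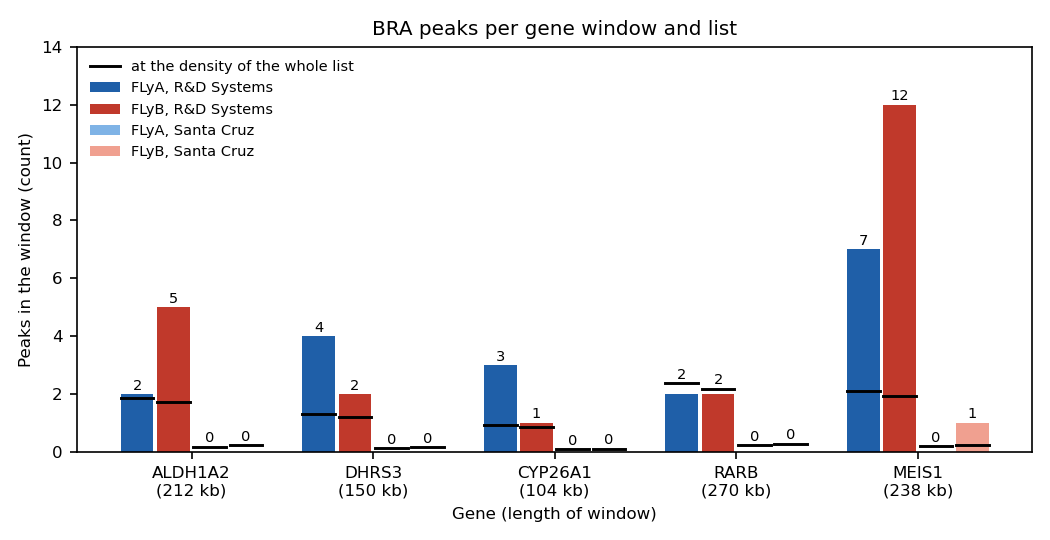
Number of BRA peaks (vertical axis, count) in the window of each gene (horizontal axis, with the window length in kb) in the 4 lists. Bars are counts from 1 library each, and black lines give the number that the mean density of the whole list would place in a window of that length. MEIS1 stands highest with 7 FLyA and 12 FLyB peaks, FLyA exceeds FLyB at DHRS3 and CYP26A1, and FLyB exceeds FLyA at ALDH1A2 and MEIS1.

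The order of the genes differed between the media. Per Mb of window, the FLyB peaks ran from 50.4 at MEIS1 and 23.6 at ALDH1A2 to 13.3 at DHRS3, 9.62 at CYP26A1 and 7.41 at RARB. In FLyA, MEIS1 (29.4), CYP26A1 (28.8) and DHRS3 (26.7) lay close together, above ALDH1A2 (9.43) and RARB (7.41). By count, ALDH1A2 had more peaks in FLyB (5 against 2), and DHRS3 (4 against 2) and CYP26A1 (3 against 1) had more in FLyA. These are counts of at most 5 peaks per gene and medium, and a link to the roles of the genes was not tested. Of tiles of matching length, 10.0% held at least 5 FLyB peaks, 9.15% at least 4 FLyA peaks and 10.2% at least 3 FLyA peaks. With 100 kb on each side, CYP26A1 had 3 FLyA and 2 FLyB peaks. Of the 40 R&D Systems peaks, 55.0% were FLyB peaks (95% interval 38.5 to 70.7%), an interval that includes the 47.8% of the whole lists.

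**Figure D2:**
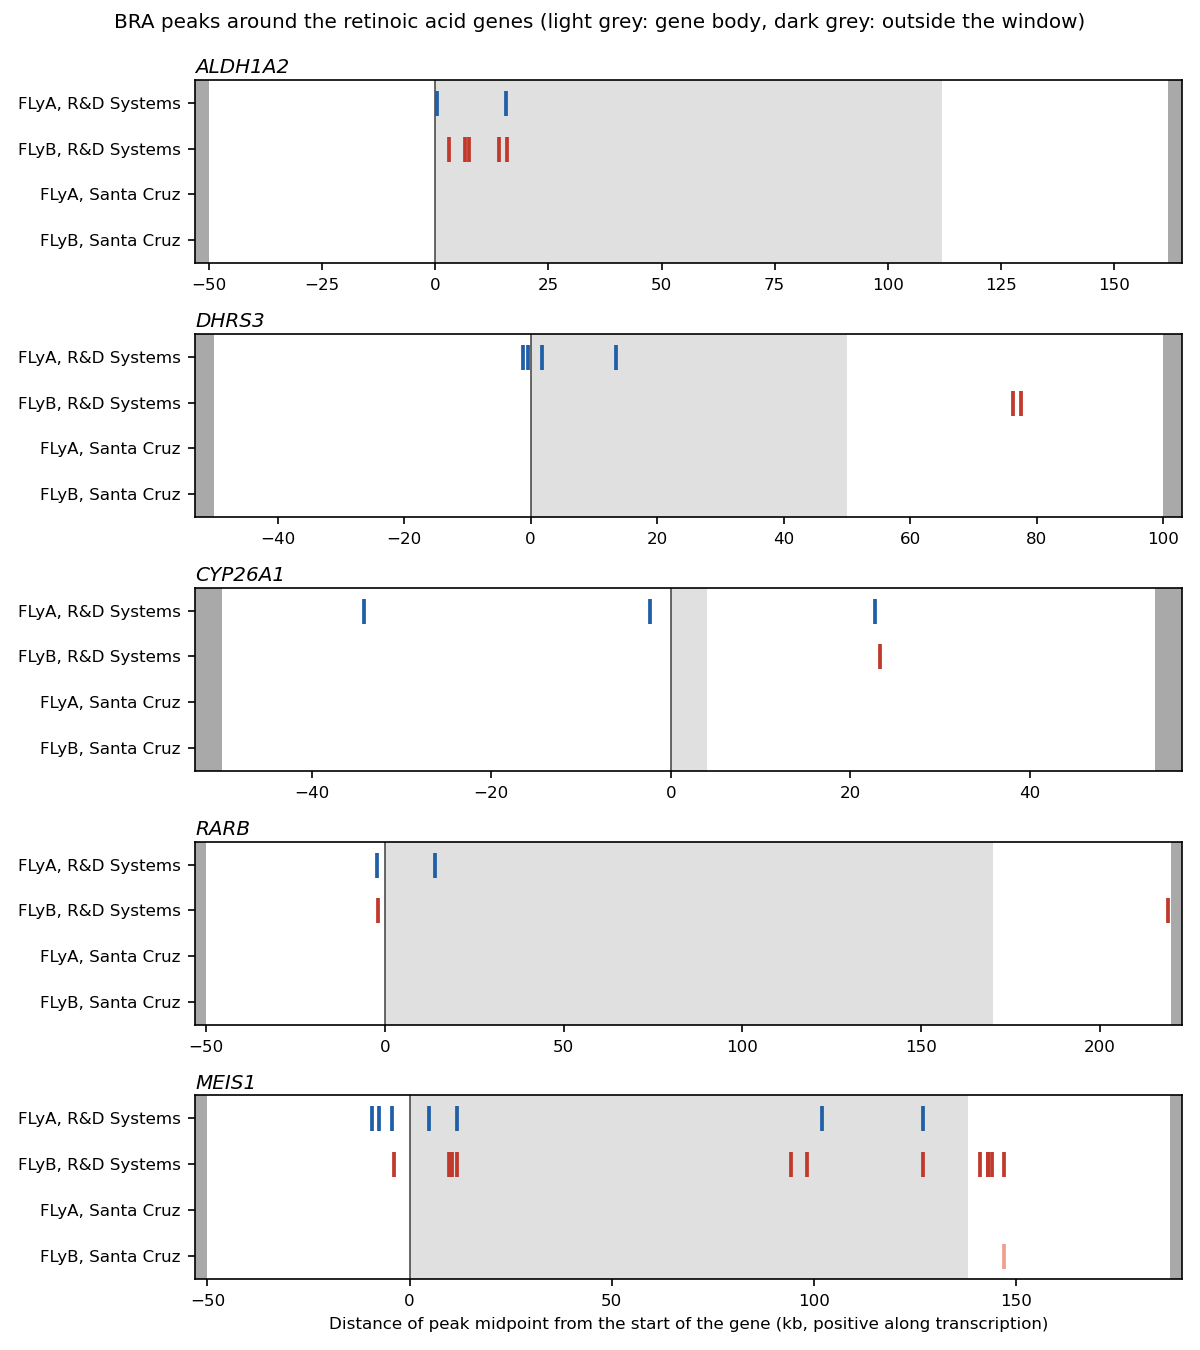
Position of each peak midpoint (ticks) along the 5 genes, in kb from the start of the gene as the rule gives it, positive along transcription, with 1 row per list. At ALDH1A2 all 7 peaks fall in the first 16 kb of the gene, at DHRS3 FLyA and FLyB peaks lie at opposite ends, and at MEIS1 the 5 peaks past the end of the gene are FLyB peaks, joined by the single Santa Cruz peak.

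ALDH1A2, the synthesis gene, had 2 FLyA and 5 FLyB peaks in its 212 kb window. Its gene body runs from 58.246 to 58.358 Mb on chromosome 15 and is read from the high end, with a precision of 1 kb. All 7 peaks lay inside the gene, between 0.462 and 15.8 kb after its start, and none in the 50 kb on either side or in the rest of the gene. The FLyB peaks stood at 3.12, 6.53, 7.54, 14.1 and 15.8 kb, a run of 13.0 kb. The FLyA peaks stood at 0.462 kb (chr15:58357339-58357738) and at 15.7 kb. Both media met at the inner site, chr15:58342035-58342468, where the FLyA and FLyB midpoints were 34 bp apart. The FLyA peak at the start lay 2.66 kb from the nearest FLyB peak, and the 4 FLyB-only peaks lay 1.67 to 7.08 kb from the nearest FLyA peak. Of tiles of the same length laid along the chromosomes, 46.8% held at least 2 FLyA peaks and 10.0% at least 5 FLyB peaks.

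No Santa Cruz peak lay in the ALDH1A2 window in either medium. The nearest Santa Cruz peaks were 42.7 kb outside it in FLyA and 79.5 kb outside it in FLyB, both beyond the 3′ end of the gene. The FLyB run inside ALDH1A2 therefore rests on 1 antibody.

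DHRS3, which draws retinaldehyde away from retinoic acid synthesis, had 4 FLyA and 2 FLyB peaks in 150 kb. Its body runs from 12.628 to 12.678 Mb on chromosome 1, also read from the high end. Of the FLyA peaks, 3 gathered at the start, at 1.22 kb (chr1:12679024-12679423) and 0.438 kb (chr1:12678239-12678638) before it and 1.83 kb after it, and the other lay 13.5 kb inside. The FLyB peaks lay 26.3 and 27.6 kb past the other end of the gene, 1.30 kb from each other. In RefSeq order VPS13D is the next protein-coding gene on that side, and these FLyB peaks were not assigned between the genes. No site was shared, and each FLyA peak was 62.8 to 77.5 kb from the nearest FLyB peak. The FLyB pair was closer to an FLyA peak outside the window, 29.5 and 30.8 kb away. With 10 kb in place of 50 kb on each side, DHRS3 kept its 4 FLyA peaks and had 0 FLyB peaks, so its FLyB peaks depend on the width of the window. At least 4 FLyA peaks were found in 9.15% of tiles of this length, and at least 2 FLyB peaks in 28.6%.

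CYP26A1, the degrading enzyme, had 3 FLyA peaks and 1 FLyB peak in 104 kb, the shortest window. The gene body covers only 4 kb, from 94.834 to 94.838 Mb on chromosome 10, and none of these peaks lay inside it. The FLyA peaks stood 34.2 and 2.29 kb before the start and 18.8 kb past the end. The peak at 2.29 kb, chr10:94831507-94831906, was the nearest of any list to the start. The FLyB peak, 19.3 kb past the end at chr10:94857071-94857470, lay beside the third FLyA peak at chr10:94856573-94856972, with 98 bp between them and 498 bp between midpoints. The media thus had neighbouring peaks here and no shared one. In RefSeq order, CYP26C1, a paralog that also degrades retinoic acid, is the protein-coding gene before CYP26A1. Where it lies in hg19 was not looked up, and the upstream FLyA peaks were not assigned between these genes. With 10 kb on each side, 1 FLyA peak and 0 FLyB peaks were left. Of tiles of this length, 10.2% held at least 3 FLyA peaks and 42.9% at least 1 FLyB peak.

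RARB, the receptor gene, had 2 peaks in each medium in 270 kb, the longest window, at or below the whole-list density (0.842 times in FLyA, 0.919 times in FLyB). RefSeq lists 4 start sites for RARB, and the rule counts from 25.470 Mb on chromosome 3 (plus strand), with 50 kb before it. Stretches of the gene from starts farther upstream were not covered, and a peak before the counted start may lie inside a longer transcript. Both media had a peak about 2 kb before it, and together they formed 1 site at chr3:25467725-25468157 with midpoints 33 bp apart. The other FLyA peak lay 14.1 kb inside the gene, 16.2 kb from the nearest FLyB peak. The other FLyB peak, at chr3:25689201-25689600, lay 49.4 kb past the end of the gene and only 0.600 kb inside the edge of the window. In RefSeq order TOP2B is the next protein-coding gene, and this peak was not assigned between the genes. At least 2 peaks were found in 56.6% of tiles of this length in FLyA and in 47.3% in FLyB.

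MEIS1 had the most peaks, 7 in FLyA and 12 in FLyB with the R&D Systems antibody and 1 in FLyB with the Santa Cruz antibody, in 238 kb. Of tiles of this length, 4.26% held at least 7 FLyA peaks and 0.859% at least 12 FLyB peaks. The body runs from 66.662 to 66.800 Mb on chromosome 2 (plus strand), and its peaks fell in 3 groups.

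Around the start of MEIS1, 5 FLyA and 4 FLyB peaks lay between 9.43 kb before and 11.7 kb after it. Upstream, the FLyA peaks stood at 9.43, 7.50 and 4.41 kb, and the single FLyB peak at 3.77 kb. The last pair, at chr2:66657387-66657786 and chr2:66658035-66658434, was separated by 248 bp. Inside the gene, FLyA had peaks at 4.80 and 11.7 kb, and FLyB had 3 close together at 9.71, 10.4 and 11.6 kb. The innermost of each medium overlapped by 261 bp at chr2:66673407-66673945, with midpoints 139 bp apart, the widest offset among the 4 shared sites.

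In the far part of the gene, between 94.2 and 127 kb, 2 FLyA and 3 FLyB peaks were called. They met at chr2:66789131-66789533, where the midpoints were 3 bp apart, the closest match between media at any of the 5 genes. The others alternated, with FLyB peaks at 94.2 and 98.3 kb and an FLyA peak at 102 kb, 3.99 kb from the nearer of them.

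Past the end of MEIS1, 5 FLyB peaks and 0 FLyA peaks lay between 2.52 and 8.60 kb, within 6.47 kb from first to last base. The nearest FLyA peak was 13.2 to 19.3 kb from each. The peak farthest from the gene was found with both antibodies, at chr2:66808400-66808810, with R&D Systems and Santa Cruz midpoints 11 bp apart. It was the only site among the 36 seen with both antibodies, and the nearest Santa Cruz FLyA peak lay 604 kb outside the window.

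The shares of medium-specific peaks were read against the whole lists. No FLyB peak overlapped 14 of the 18 FLyA peaks (77.8%, 95% interval 52.4 to 93.6%), against 67.0% of all FLyA peaks. Likewise, no FLyA peak overlapped 18 of the 22 FLyB peaks (81.8%, 59.7 to 94.8%), against 63.9% of all FLyB peaks. Both intervals include the value of the whole list, so at these numbers no difference was detectable. The shared sites were 1 at ALDH1A2, 1 at RARB and 2 at MEIS1, and there was none at DHRS3 or CYP26A1. A shared site had midpoints 3 to 139 bp apart, whereas the medium-specific peaks lay between 498 bp and 100 kb from the nearest peak of the other medium.

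**Figure D3:**
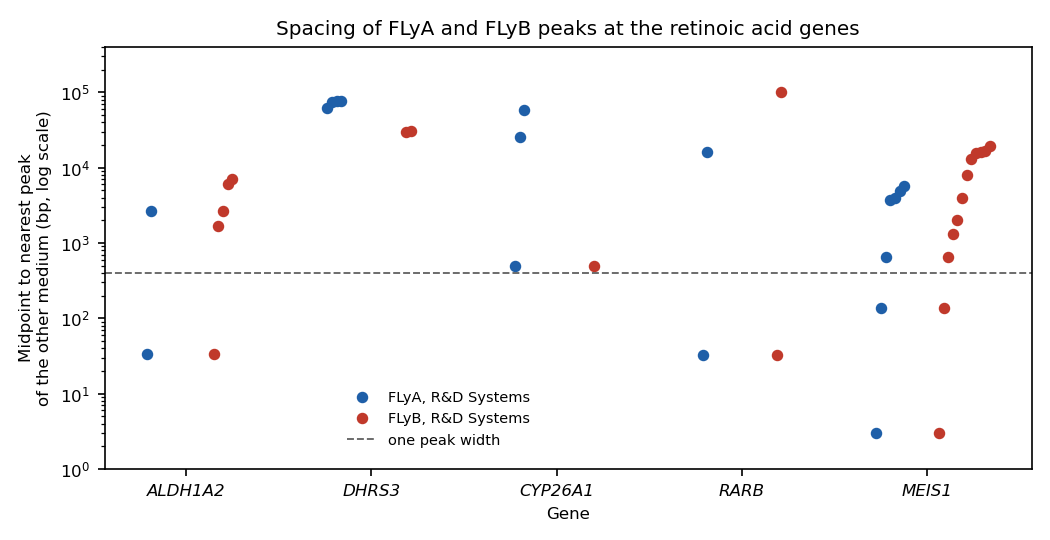
Distance from the midpoint of each R&D Systems peak to the nearest midpoint of the other medium (vertical axis, bp, log scale), by gene. Each point is 1 peak, and the dashed line marks 400 bp, the width of a peak, below which peaks overlap. The 8 points below the line are the 4 shared sites seen from both media, and all 6 points at DHRS3 lie at 29.5 kb or more.

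Distances between the media were also counted without asking for overlap. A FLyB midpoint lay within 10 kb of 11 of the 18 FLyA peaks (61.1%, 35.7 to 82.7%), against 48.9% over the list. A FLyA midpoint lay within 10 kb of 14 of the 22 FLyB peaks (63.6%, 40.7 to 82.8%), against 56.0%. Within 1 kb the counts were 6 of 18 (33.3%, 13.3 to 59.0%) and 6 of 22 (27.3%, 10.7 to 50.2%), against 35.9% and 39.9% over the lists. Each of these intervals includes the value of the whole list, so at these numbers no difference was detectable.

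As a description, the share of FLyB peaks standing in groups was above that of the whole list with and without MEIS1. Another FLyB peak lay within 10 kb of 17 of 22 (77.3%, 54.6 to 92.2%), above the 40.6% of the whole FLyB list. For FLyA this held for 8 of 18 (44.4%, 21.5 to 69.2%), and its interval includes the 33.2% of the whole list. The FLyB groups were those in ALDH1A2, past the end of DHRS3 and at MEIS1. Peaks of a group count for each other, so the 17 are not independent and their interval is too narrow. It cannot decide whether FLyB differs from the whole list. Without MEIS1 the counts were 7 of 10 FLyB peaks (70.0%, 34.8 to 93.3%) and 3 of 11 FLyA peaks (27.3%, 6.02 to 61.0%). Both intervals include the whole-list value. The FLyB share thus changed little, while its interval widened with fewer peaks. Whether the FLyB difference rests on MEIS1 cannot be told from these counts. The windows also held FLyB peaks at 2.80 times the density of the whole list, and the share was not adjusted for density. The number of separate binding events was not determined.

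**Figure D4:**
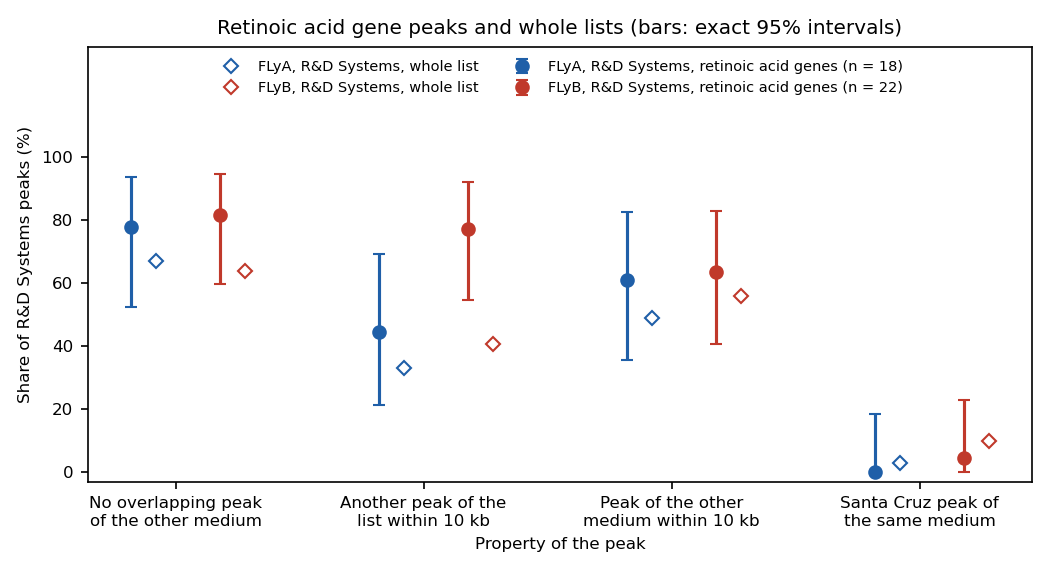
Share (%) of the R&D Systems peaks at the 5 genes with each property named on the horizontal axis, with exact 95% intervals (filled points, 18 FLyA and 22 FLyB peaks), beside the whole list (open diamonds). The FLyB share with another FLyB peak within 10 kb, 77.3%, is the only one whose interval leaves out the whole-list value. Peaks of a group count for each other in that share, so its interval is too narrow to decide on a difference.

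Pooled over the 5 genes, the median distance to the start of the gene was lower for FLyA than for FLyB peaks, as a description without a test. The median distance was 8.47 kb for FLyA peaks (range 0.438 to 127 kb) and 49.8 kb for FLyB peaks (2.04 to 219 kb). Within 5 kb of a start lay 8 of 18 FLyA and 3 of 22 FLyB peaks, and within 20 kb 14 and 10. The same counts over the whole lists need an hg19 annotation and were not computed, so it is not known whether FLyA peaks in general lay nearer to starts. Without MEIS1, whose FLyB peaks past the end of the gene weigh on the median, it was 2.29 kb in FLyA and 14.9 kb in FLyB, with 6 of 11 and 2 of 10 peaks within 5 kb. Peaks of 1 gene share its length and layout, and the difference was not seen at every gene. By gene, the FLyA and FLyB medians were 8.10 and 7.54 kb at ALDH1A2 and 22.8 and 23.3 kb at CYP26A1. They were 1.52 and 76.9 kb at DHRS3, 8.11 and 111 kb at RARB and 9.43 and 113 kb at MEIS1. In FLyA, each of the 5 genes had a peak within 5 kb of the start, and in FLyB 3 of them did, ALDH1A2, RARB and MEIS1.

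The second antibody seldom called these sites, as in the whole lists, whose shares lie inside both intervals given here. No FLyA peak of the R&D Systems list overlapped a Santa Cruz FLyA peak (0 of 18, 95% interval 0 to 18.5%), against 3.02% of the whole list. In FLyB 1 of 22 did (4.55%, 0.115 to 22.8%), against 10.0%. For the 0 in FLyA, an approximate upper limit, 3 divided by the number of peaks, is 16.7%. At the mean density of the Santa Cruz lists, the 974 kb of windows would hold 0.805 FLyA and 0.995 FLyB peaks, against the observed 0 and 1. The single Santa Cruz peak overlapped an R&D Systems peak of the same medium, as 79.0% of the Santa Cruz FLyB list did and 31.9% of the Santa Cruz FLyA list. It overlapped no Santa Cruz peak of the other medium, which held for 91.7% of the FLyB and 89.9% of the FLyA list of that antibody. Thus 39 of the 40 R&D Systems peaks, including all those at ALDH1A2, DHRS3, CYP26A1 and RARB, were called with 1 antibody.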

How the data were processed

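BRA ChIP-seq peak lists from 4 libraries were analysed. The authors aligned the reads (Bowtie 0.12.7 and hg19 are named in the submitters' processing notes), called peaks with MACS and deposited the positions of peaks, with no score or fold. A threshold of 1e-12 stands in the track lines of the Santa Cruz lists. For the R&D Systems lists the threshold, and for every list the control library, are not given in the sources used here. The members and lists were chosen with earlier results of these data known.

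Peaks were assigned by midpoint to the 5 windows. Peaks sharing 1 bp or more were taken as the same site, checked with bedtools 2.31.1 and tested on simulated data. Python 3.11.15, SciPy 1.17.1 and matplotlib 3.10.9 were used. Whole-list densities cover the autosomes and chromosome X from the first to the last peak. Sites named with a position were those in at least 2 lists, those nearest a start and those with a Santa Cruz peak, and others were named after their values were seen. RefSeq (GRCh38.p14) gave promoter sequences, strands and gene order for all 5 genes, and none of its positions was compared with hg19. Motifs within peaks, exons and introns, the other retinoic acid genes of the design and genes of similar pattern need an hg19 genome or annotation and were not analysed here. The promoter, tile, spacing, start-distance and direct repeat values were added after the data were seen.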

Additional observations from a re-analysis of the deposited data

How the results depend on the processing

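Of 36 values under alternatives, 33 stayed within the 95% interval of the reported share or within 1.5 times the reported count. With 100 kb on each side, the Santa Cruz FLyA list gained 1 peak, near ALDH1A2. In the Santa Cruz FLyB list, and among R&D Systems FLyB peaks with a Santa Cruz peak, 100% were medium-specific, which is the same single peak at MEIS1. In FLyA neither alternative gave a value, as no such peak exists. With peaks at most 500 bp apart counted as shared, 66.7% of FLyA and 72.7% of FLyB peaks were medium-specific. Leaving out MEIS1, chosen after seeing the data, gave 81.8% and 80.0%, and for FLyB peaks with another within 10 kb 70.0% in place of 77.3%, with an interval that then included the whole-list value. The alternatives for motifs and other retinoic acid genes were not run. No paired analysis was possible because the results are positions and counts of peaks that come from no test. The media were compared within each antibody. Read depth is unknown.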

Other observations

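Widening the windows to 100 kb on each side changed the counts most around MEIS1, where FLyA went from 7 to 10 peaks and FLyB stayed at 12. Around CYP26A1 the wider window held 3 FLyA and 2 FLyB peaks, around RARB 2 and 3, and around DHRS3 5 and 2, and at ALDH1A2 the R&D Systems counts did not move. The added FLyA peak at DHRS3 lay 7.10 kb outside the window used above, and the nearest added FLyA peak at MEIS1 26.1 kb outside it. With 10 kb on each side, MEIS1 kept 7 FLyA and 12 FLyB peaks and ALDH1A2 kept 2 and 5. The R&D Systems peaks counted with 50 kb on each side at MEIS1 and ALDH1A2 thus all lay inside the gene or within 10 kb of it.

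An FLyA and an FLyB peak lay within 500 bp of each other without overlap at 2 places, past the end of CYP26A1 (98 bp between an FLyA and an FLyB peak) and upstream of MEIS1 (248 bp). Counting them as shared would bring the sites common to both media from 4 to 6, with 1 at CYP26A1 and 3 at MEIS1. As every deposited peak has the same width, the true extent of binding at these pairs cannot be read from the lists.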
